A study of Mus musculus with 10 samples.

Results

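The data concern 7 genes by which microglia, the resident macrophages of the brain, are known to sense and clear extracellular nucleotides. They are the nucleotide receptor genes *P2ry12*, *P2ry13* and *P2ry6*, the ATP-gated channel genes *P2rx4* and *P2rx7*, the adenosine receptor gene *Adora3* and *Entpd1*, which encodes the ectonucleotidase CD39. They were chosen by name for this known role, with earlier results of these data known, and are 7 of the 18292 gene symbols in the deposited tables. Each gene had UMIs (unique molecular identifiers, 1 per captured transcript molecule) in all 10 libraries.

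The study asked how closely microglia kept in organotypic brain slices resemble those of the adult brain and those of conventional culture. All cells came from C57BL/6 mice and were sorted as CD11b high, CD45 intermediate, then profiled as single cells with 10x Genomics 3′ v2 chemistry. Adult microglia were isolated directly from mice aged 10 to 15 weeks. In vitro microglia came from mixed glial cultures of cortex from pups at postnatal day 2, and were collected from the medium after 3 weeks (day 22). Slice microglia came from coronal slices of pups at postnatal day 1 to 4, kept on inserts with added human PDGF (hPDGF) for 1 day (22 to 26 h), 1 week or 3 weeks, with slices pooled as required. Each of the 5 groups held 2 libraries. Every cultured group began from neonatal tissue, so age of the donor tissue and culture cannot be told apart in a comparison with adult.

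After cell filtering the libraries held 61 to 3799 cells and 385373 to 39689540 UMIs, with a median of 1858 to 13966 UMIs per cell. Slice 1 week was the thinnest group, with 148 and 61 cells. The study also removed outlying cells on a t-SNE map, a step not repeated here. Its cell counts for both slice 1 week samples are below those used here, and for replicate 1 far below 148. Of the barcodes kept, 218 occurred in more than 1 library. All 8 microglial marker genes had UMIs in every library, and their summed level was lowest in slice 1 day (4969 and 4235 CPM, counts scaled to a common library total) and highest in adult (28854 and 26440 CPM). Neutrophil markers summed to 7727 and 22430 CPM in slice 1 day and to 40216 and 955 CPM in slice 1 week, against 1.18 to 8.39 CPM in the other libraries. Border macrophage markers summed to 2270 and 2132 CPM in vitro, of which *Pf4* made up 1873 and 1788 CPM, and to 11.1 and 5.74 CPM in adult.

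Damaged or active cells release ATP, which ectoenzymes cut stepwise to ADP, AMP and adenosine, while UTP yields UDP. The P2Y receptors are G protein-coupled: P2RY12 and P2RY13 bind ADP, and P2RY12 steers microglial processes toward injury, whereas P2RY6 binds UDP and is known for its role in phagocytosis. The P2X receptors are ATP-gated cation channels, of which P2RX7 needs high ATP and is linked to the inflammasome. CD39 removes ATP and ADP, and ADORA3 senses the adenosine formed at the end of the chain. *P2ry12* is also among the most used markers of unperturbed microglia.

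*P2ry12* (chr3:59216271-59262985) and *P2ry13* (chr3:59207892-59210882) lie 5389 bases apart on the minus strand of GRCm38.p6, and both lie inside *Med12l* (plus strand). *P2rx7* (chr5:122643927-122692336) and *P2rx4* (chr5:122707518-122729739) lie 15182 bases apart on the plus strand. *P2ry6* is at chr7:100937630-100975498 (minus strand), *Adora3* at chr3:105904421-105908928 and *Entpd1* at chr19:40612366-40741602 (both plus strand). *Adora3* overlaps *Tmigd3* on the same strand, so its counts are uncertain wherever reads could be assigned to either gene.

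The RefSeq promoters (GRCm38.p6, 250 bases before to 50 after the start site) of 4 genes are shown because *P2ry12* and *P2ry13* moved together, *Adora3* was nearly lost in vitro and *P2rx4* moved the other way. They span chr3:59262936-59263235 for *P2ry12*, chr3:59210833-59211132 for *P2ry13* (both minus strand), chr3:105904171-105904470 for *Adora3* and chr5:122707294-122707593 for *P2rx4* (both plus strand). Capitals mark matches to the motifs searched, in the order the sequence reads 5′ to 3′.
P2ry12: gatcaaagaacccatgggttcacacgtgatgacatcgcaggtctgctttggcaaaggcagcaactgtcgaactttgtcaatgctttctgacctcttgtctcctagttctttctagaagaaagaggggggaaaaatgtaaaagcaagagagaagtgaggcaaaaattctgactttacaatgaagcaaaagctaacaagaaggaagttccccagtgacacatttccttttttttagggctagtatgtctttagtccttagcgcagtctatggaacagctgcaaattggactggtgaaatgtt
P2ry13: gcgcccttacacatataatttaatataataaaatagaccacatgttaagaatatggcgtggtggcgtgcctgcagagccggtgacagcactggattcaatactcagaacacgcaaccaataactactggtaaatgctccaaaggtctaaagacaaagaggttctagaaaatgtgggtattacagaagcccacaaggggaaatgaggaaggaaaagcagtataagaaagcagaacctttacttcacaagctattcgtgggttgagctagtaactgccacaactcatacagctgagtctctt
Adora3: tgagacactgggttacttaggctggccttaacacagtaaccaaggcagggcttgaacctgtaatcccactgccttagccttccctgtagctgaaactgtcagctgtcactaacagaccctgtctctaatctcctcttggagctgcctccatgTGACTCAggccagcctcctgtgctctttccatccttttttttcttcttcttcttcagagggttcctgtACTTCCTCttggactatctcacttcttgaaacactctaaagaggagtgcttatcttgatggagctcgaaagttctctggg
P2rx4: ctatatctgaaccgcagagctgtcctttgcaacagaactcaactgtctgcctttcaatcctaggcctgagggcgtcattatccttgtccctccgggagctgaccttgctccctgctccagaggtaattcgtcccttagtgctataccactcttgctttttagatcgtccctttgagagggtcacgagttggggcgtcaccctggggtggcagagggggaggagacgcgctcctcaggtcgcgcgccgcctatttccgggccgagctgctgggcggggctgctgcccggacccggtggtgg
The motifs, searched on both strands with overlaps allowed, were PU.1 (GAGGAAGT, in 3.20% of 32851 promoters of this length), IRF (GAAANNGAA, 8.56%), AP-1 (TGANTCA, 7.81%) and RUNX (TGTGGTT, 5.27%). *Adora3* held a PU.1 match on the other strand starting at position -30 from the start site and an AP-1 match at -98. Of the promoters not shown, the first of *P2rx7* held an AP-1 match at -249 and the second a PU.1 match at position 4. The windows of *P2ry12*, *P2ry13* and *P2rx4* and both windows of *Entpd1* held none of these letters. *P2ry6* was matched to no promoter.

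In CPM, adult microglia held the highest mean level of 6 of the 7 genes, and *P2rx4* was the exception. On that scale *P2ry12*, *P2ry13* and *Adora3* were lowest in vitro, whereas *Entpd1*, *P2rx7* and *P2ry6* were lowest in slice 1 day. In mean UMIs per cell, in vitro stood above adult also for *P2ry6* (5.07 against 1.35), *P2rx7* (0.411 against 0.198) and *Entpd1* (0.79 against 0.549). Between 1 day and 3 weeks in slices *P2ry12*, *P2ry13* and *Entpd1* rose, without reaching adult levels. A gene is counted as called higher or lower where edgeR's quasi-likelihood test gave a Benjamini-Hochberg adjusted p under 0.05 over 12157 genes with a fold change over 1.5. All 4 comparisons with adult share the same 2 adult libraries.

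In vitro against adult, 5 of the 7 genes were called lower (28.5% of all genes tested) and 1 higher (22.4%). In slice 1 day against adult, 6 were lower (25.3% of all genes) and 0 higher (24.9%, and 0 at an unadjusted p under 0.05). Slice 1 week had 5 lower (13.6%) and 1 higher (15%), and slice 3 weeks 5 lower (17.5%) and 0 higher (17.9%, and 1, *P2rx4*, at an unadjusted p under 0.05). In vitro against slice 3 weeks, 3 genes were lower (19.9%) and 1 higher (13.3%). From slice 1 day to slice 3 weeks 0 genes fell (12.8%, and 0 at an unadjusted p under 0.05) and 3 rose (13.9%). DESeq2 gave the same counts for these zeros. The median log2 change of the 7 genes against adult was -1.62 in vitro, -2.12 in slice 1 day, -2.26 in slice 1 week and -1.13 in slice 3 weeks, where the median over all genes lay between -0.11 and -0.03. These values are scaled to each library's depth. Counted as UMIs per cell with no scaling, the median gene shifted upward by 1.08 to 2.15 on the log2 scale in the cultured groups, *P2ry6* and *P2rx7* then lay above adult in all 4, and in vitro against adult 571 of all genes were called lower and 9767 higher in place of 3461 and 2719.

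**Figure D1:**
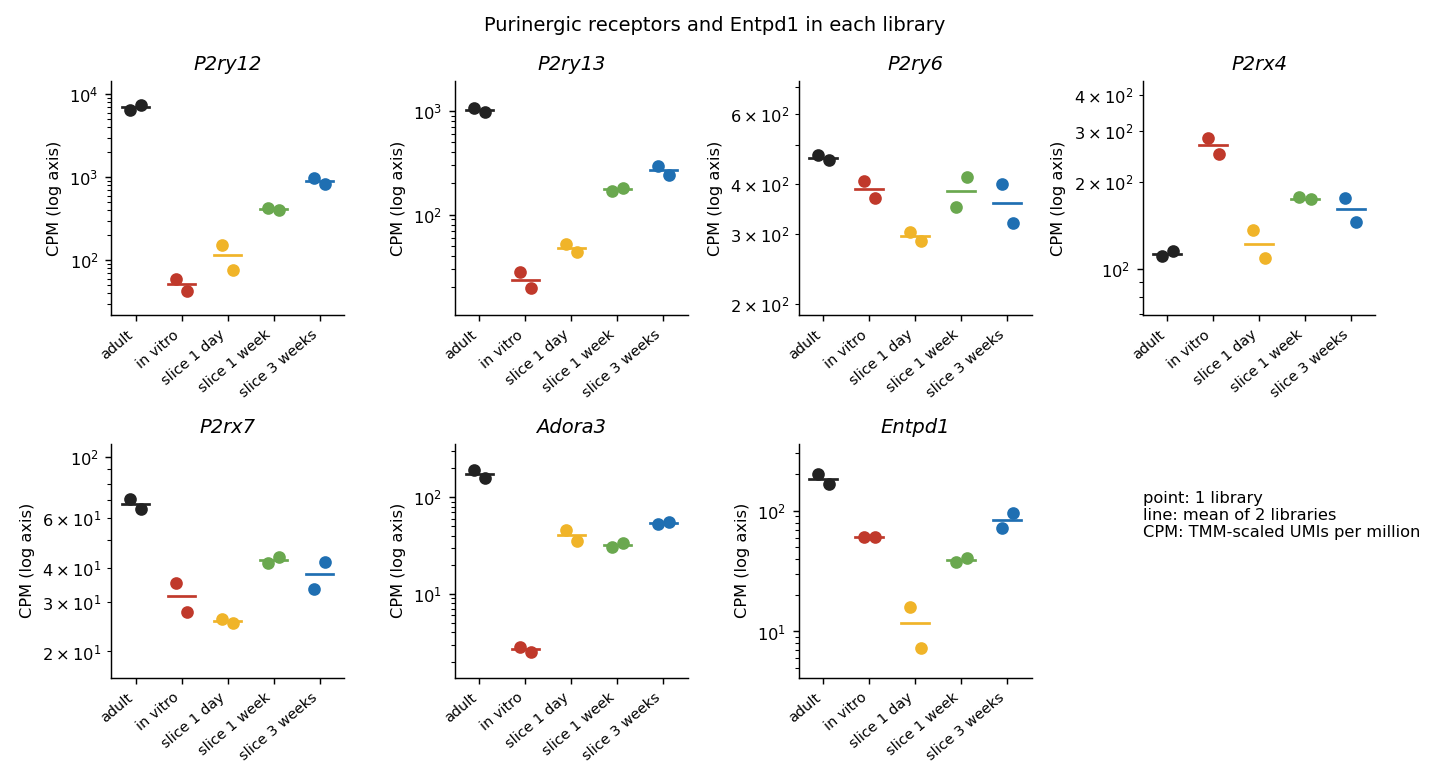
Level of each gene in each of the 10 libraries, in CPM scaled by TMM on a log axis that differs between panels; points are libraries and lines the mean of 2. *P2ry12* runs from 42.6 to 7398 CPM with slices between in vitro and adult, *P2rx4* is highest in vitro, and *Entpd1* is lowest in slice 1 day.

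*P2ry12* stood at 6486 and 7398 CPM in the 2 adult libraries. It was at 60.0 and 42.6 CPM in vitro, at 155 and 77.0 CPM in slice 1 day, at 426 and 402 CPM in slice 1 week and at 978 and 818 CPM in slice 3 weeks. No 2 groups overlapped, and the order ran from adult through slice 3 weeks, slice 1 week and slice 1 day down to in vitro. Against adult the log2 change was -7.08 ± 0.37 (SE) in vitro, a 135-fold difference (edgeR adjusted p = 2.2e-07), -5.91 ± 0.35 in slice 1 day, -4.07 ± 0.32 in slice 1 week and -2.95 ± 0.30 in slice 3 weeks (adjusted p = 6e-05). Per cell, unscaled, these differences were smaller, at -4.89, -4.40, -2.85 and -1.82, and all 4 were called. Scaled to depth, slice 3 weeks stood a mean 17.5-fold above in vitro (log2 in vitro minus slice 3 weeks -4.13 ± 0.32, edgeR adjusted p = 9.3e-06). Within slices the gene rose by 2.96 ± 0.31 from 1 day to 3 weeks (adjusted p = 0.00018). Of the neighbouring steps, slice 1 week against 1 day was called (1.84 ± 0.30, adjusted p = 0.0055), though not without slice 1 week replicate 1 (adjusted p = 0.063). Slice 3 weeks against 1 week was not called (1.12 ± 0.29, adjusted p = 0.053), but was without either in vitro library or either slice 1 day library (adjusted p = 0.017 to 0.048). It was also called with cells thinned to 1000 UMIs (1.56, adjusted p = 0.012), with no filter on low counts (1.23), without the 5% of cells with most UMIs (1.25, adjusted p = 0.041) and with the 2 groups fitted alone (1.08, adjusted p = 0.039). The lowest step, in vitro under slice 1 day, was called (-1.17 ± 0.29, adjusted p = 0.01), but not without in vitro replicate 2 or slice 1 day replicate 1 (adjusted p = 0.11 in either case), nor per cell, unscaled (-0.49, adjusted p = 0.33).

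*P2ry13* had adult levels of 1060 and 971 CPM. Its levels were 27.6 and 19.6 CPM in vitro, 52.4 and 43.5 CPM in slice 1 day, 168 and 182 CPM in slice 1 week, and 295 and 240 CPM in slice 3 weeks. The groups kept the order of *P2ry12* and again did not overlap. Against adult the log2 change was -5.43 ± 0.23 in vitro (adjusted p = 5.6e-08), -4.41 ± 0.22 in slice 1 day, -2.54 ± 0.21 in slice 1 week and -1.93 ± 0.20 in slice 3 weeks (adjusted p = 5.6e-05, all edgeR). Per cell, unscaled, the values were -3.27, -2.89, -1.36 and -0.83, all called. It rose by 2.48 ± 0.20 between slice 1 day and 3 weeks (adjusted p = 8.2e-05), and the step from 1 week to 3 weeks was not called (0.62 ± 0.20, adjusted p = 0.1), but was with no filter on low counts (0.74, adjusted p = 0.0052). The step from slice 1 day down to in vitro was called (-1.02 ± 0.20, adjusted p = 0.0028), but not without in vitro replicate 2 (adjusted p = 0.058), nor per cell, unscaled (-0.38, adjusted p = 0.43).

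The 2 ADP receptor genes did not fall to the same extent. There were 6.12 and 7.62 *P2ry12* UMIs per *P2ry13* UMI in the adult libraries and between 1.77 and 3.41 in the 8 cultured ones. This ratio needs no scaling for depth, and adult did not overlap any cultured group. Both genes lie within *Med12l*, a Mediator subunit gene on the opposite strand, which was at 15.1 and 12.5 CPM in adult and at 11.3 and 13.4 CPM in slice 3 weeks. *Med12l* was called lower in vitro (-4.08 ± 0.35, edgeR adjusted p = 5.2e-06) and in slice 1 day (-2.08 ± 0.35), while its slice 3 weeks value was -0.16 ± 0.29 (adjusted p = 0.71).

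*P2ry6* varied least among the 7 genes in CPM, though not in UMIs per cell. Its levels were 471 and 459 CPM in adult, 407 and 369 CPM in vitro, 302 and 288 CPM in slice 1 day, 349 and 417 CPM in slice 1 week and 400 and 318 CPM in slice 3 weeks. Adult lay above every other library and slice 1 day below, while the other groups overlapped. The gene was called lower in slice 1 day alone (-0.66 ± 0.16, edgeR adjusted p = 0.0055), and that call was lost without slice 1 day replicate 2 (-0.56, adjusted p = 0.067), with the study label as a covariate (-0.57, under the 1.5-fold limit) and without the 5% of cells with most UMIs (-0.55). The other log2 differences from adult were -0.26 ± 0.16 in vitro (adjusted p = 0.18), -0.29 ± 0.16 in slice 1 week and -0.37 ± 0.16 in slice 3 weeks (adjusted p = 0.086). Counted per cell instead, *P2ry6* went the other way, with 1.69 and 1.01 UMIs per adult cell and 5.24 and 4.90 per in vitro cell.

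*P2rx4* was the member with its lowest mean in adult. It was at 111 and 115 CPM in adult and at 283 and 250 CPM in vitro. In slices it stood at 136 and 109 CPM after 1 day, 177 and 174 CPM after 1 week, and 176 and 145 CPM after 3 weeks. In vitro lay above every other library, and slice 1 day overlapped adult. The gene was called higher in vitro against adult (1.23 ± 0.16, 2.35-fold, edgeR adjusted p = 8.9e-05) and against slice 3 weeks (0.73 ± 0.16, adjusted p = 0.0045). Slice 1 week against adult was called at 0.63 ± 0.17 (adjusted p = 0.017), a call that was lost on leaving out any 1 of the 4 libraries compared (log2 0.60 to 0.65, adjusted p = 0.059 to 0.11), and also by library size alone (0.42), with no filter on low counts (0.58) and with thinned cells (adjusted p = 0.11). Slice 3 weeks stood at 0.50 ± 0.16 above adult (adjusted p = 0.028), under the 1.5-fold limit, and was called at 0.69 without slice 3 weeks replicate 2. Scaled by library size alone, the slice 1 day value was -0.02 in place of 0.10. *Camkk2*, a kinase gene that overlaps *P2rx4* on the other strand, was called lower in vitro (-0.72 ± 0.16, adjusted p = 0.0027), in slice 1 day and in slice 3 weeks, though per cell it went from 0.173 and 0.106 UMIs in adult to 0.358 and 0.411 in vitro.

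*P2rx7*, the neighbour of *P2rx4*, fell where *P2rx4* did not. It was at 70.4 and 64.7 CPM in adult, 35.2 and 27.8 CPM in vitro, 26.2 and 25.4 CPM in slice 1 day, 41.5 and 43.5 CPM in slice 1 week and 33.6 and 42 CPM in slice 3 weeks. Adult lay above every cultured library, and slice 3 weeks overlapped both in vitro and slice 1 week. The log2 change from adult was -1.10 ± 0.16 in vitro (edgeR adjusted p = 0.00017), -1.39 ± 0.17 in slice 1 day, -0.68 ± 0.20 in slice 1 week (adjusted p = 0.029) and -0.83 ± 0.16 in slice 3 weeks (adjusted p = 0.0021). The slice 1 week call rests on 42 and 17 UMIs and was lost without either adult library, either slice 1 week library or slice 1 day replicate 2 (adjusted p = 0.053 to 0.26), and also under DESeq2 (-0.62, adjusted p = 0.064), with thinned cells (-1.37 ± 0.55, adjusted p = 0.11) and without the 5% of cells with most UMIs (-0.59, adjusted p = 0.055). The difference of slice 3 weeks from 1 day was 0.56 ± 0.17 (adjusted p = 0.028), under the 1.5-fold limit, but it was called without slice 3 weeks replicate 1 (0.70, adjusted p = 0.0083), with the study label as a covariate (0.60, adjusted p = 0.027) and with no filter on low counts (0.60). Per cell, unscaled, *P2rx7* was higher in vitro than in adult by 1.06 (adjusted p = 0.0038). There were 1.58 and 1.78 *P2rx4* UMIs per *P2rx7* UMI in adult, 8.04 and 9.02 in vitro, and 3.46 to 5.23 in slices.

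*Adora3* was close to lost in vitro. Adult libraries held 192 and 159 CPM and in vitro libraries 2.86 and 2.53 CPM, from 89 and 90 UMIs. Slices held 46.4 and 35 CPM at 1 day, 30.6 and 33.3 CPM at 1 week and 53.2 and 56.0 CPM at 3 weeks. No group overlapped another, and in vitro stood far below all slices. The log2 change from adult was -6.03 ± 0.20 in vitro (65.2-fold, edgeR adjusted p = 2.4e-08), -2.12 ± 0.17 in slice 1 day, -2.48 ± 0.21 in slice 1 week and -1.69 ± 0.16 in slice 3 weeks (adjusted p = 3.9e-05). Per cell, unscaled, the in vitro value was -3.89 and that of slice 1 week -1.30, while the slice 1 day and slice 3 weeks values were both -0.62 and neither was called (adjusted p = 0.1 and 0.11). In vitro lay -4.34 ± 0.19 below slice 3 weeks (adjusted p = 2.8e-07). The slice time points were not called against each other: 3 weeks differed from 1 day by 0.44 ± 0.16 (adjusted p = 0.068) and from 1 week by 0.79 ± 0.22 (adjusted p = 0.063). Without slice 1 day replicate 1 the former was called, at 0.64, and with no filter on low counts the latter, at 0.92 (adjusted p = 0.0045). *Tmigd3*, which shares its strand and locus, had 1 to 32 UMIs in 9 libraries and 0 in slice 1 week replicate 2.

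*Entpd1* had an order of its own. It was at 203 and 167 CPM in adult, 60.4 and 60.3 CPM in vitro, 16 and 7.32 CPM in slice 1 day, 37.6 and 40.9 CPM in slice 1 week, and 72.6 and 96.0 CPM in slice 3 weeks. Slice 1 day was the lowest group, from 61 and 71 UMIs, and in vitro lay between slice 1 week and slice 3 weeks without overlap. The log2 change from adult was -4.08 ± 0.31 in slice 1 day (16.9-fold, edgeR adjusted p = 4.2e-06), -2.26 ± 0.33 in slice 1 week, -1.62 ± 0.26 in vitro (adjusted p = 0.0004) and -1.13 ± 0.26 in slice 3 weeks (adjusted p = 0.0059). The slice 3 weeks call was lost without adult replicate 1 (-0.92, adjusted p = 0.055). *Entpd1* rose by 2.95 ± 0.30 from slice 1 day to 3 weeks (adjusted p = 0.00016), and in vitro exceeded slice 1 day by 2.47 ± 0.29 (adjusted p = 0.00018). The slice 1 week rise over 1 day (1.83 ± 0.37, adjusted p = 0.014) was lost without either slice 1 week library or slice 1 day replicate 2 (adjusted p = 0.06 to 0.15). The step from slice 1 week to 3 weeks was not called (1.12 ± 0.33, adjusted p = 0.08), but was without either slice 1 day library or slice 3 weeks replicate 1 (adjusted p = 0.022 to 0.04), and with no filter on low counts (1.26, adjusted p = 7.6e-06). In vitro against slice 3 weeks was not called (-0.49 ± 0.25, adjusted p = 0.16). Unscaled per cell, the in vitro difference from adult was 0.52 (adjusted p = 0.15) and that of slice 3 weeks -0.08, while slice 1 day (-2.57) and slice 1 week (-1.08) were called.

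**Figure D2:**
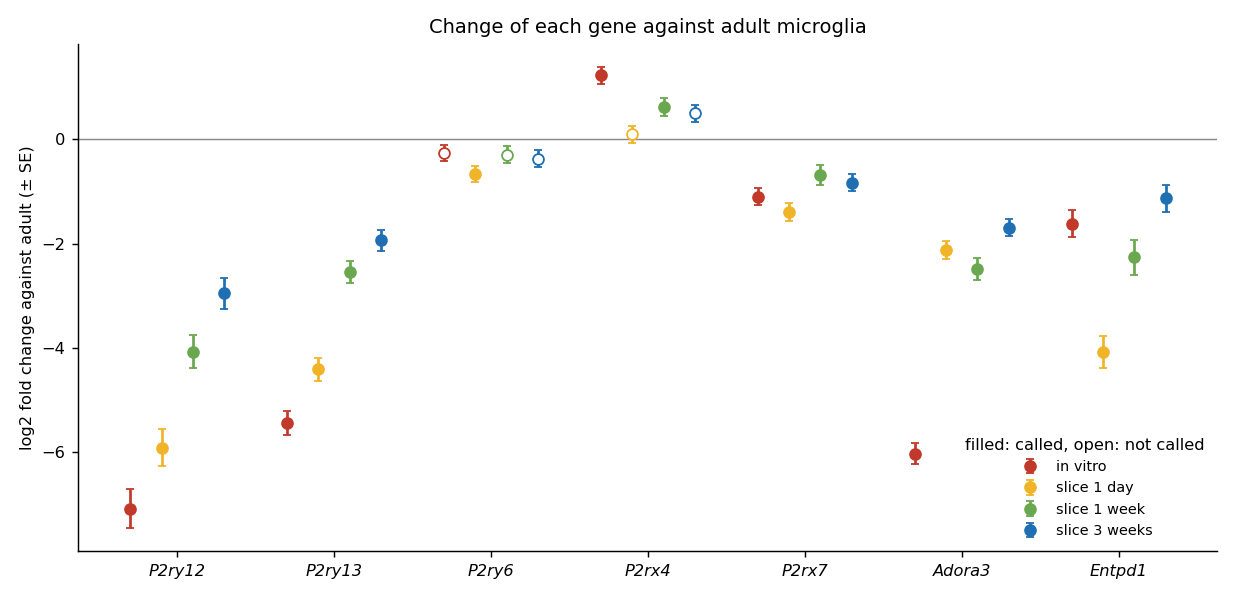
Log2 fold change of each gene against adult with its SE, for the 4 cultured groups; filled points are called and open points are not. *P2ry12* and *P2ry13* rise in steps from in vitro (-7.08 and -5.43) to slice 3 weeks (-2.95 and -1.93), while *Entpd1* is lowest in slice 1 day (-4.08) and *P2rx4* is at or above the zero line.

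Among the other pairs of neighbouring groups, 3 of the 7 genes were called in slice 1 week against 1 day (10.2% of all genes in either direction) and 0 in slice 3 weeks against 1 week (5.72%). In vitro against slice 1 day had 3 lower and 2 higher, *Entpd1* and *P2rx4* (31.9% of all genes in either direction). In vitro against slice 1 week had 3 lower and 1 higher (16.2%), the latter being *P2rx4* (0.60 ± 0.17, edgeR adjusted p = 0.033), a call lost without in vitro replicate 1 or either slice 1 week library (adjusted p = 0.051 to 0.13), and also without neutrophil- and monocyte-marker barcodes (0.53), by library size alone (0.50) and with thinned cells (0.57), and at 0.5% as the limit for such barcodes (0.59). In that comparison *Entpd1* was also called higher with no filter on low counts (0.87, adjusted p = 0.003) and with the 2 groups fitted alone (0.64, adjusted p = 0.03), and *Adora3* lost its call with thinned cells (-2.74, adjusted p = 0.063). For slice 3 weeks against 1 week edgeR gave 4 genes at an unadjusted p under 0.05, with no filter on low counts it called *P2ry12*, *P2ry13*, *Adora3* and *Entpd1*, and DESeq2 called *P2ry12* (1.10, adjusted p = 0.007) and *Entpd1* (1.10, adjusted p = 0.025).

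Adult replicate 1 and slice 3 weeks replicate 1 carry 1 study label and the other 8 libraries another, and the comparison of slice 3 weeks with adult can be made within each. *P2ry12* differed by -2.73 in the first and -3.18 in the second, *P2ry13* by -1.84 and -2.02, *Adora3* by -1.85 and -1.51, *P2rx7* by -1.07 and -0.62, *Entpd1* by -1.49 and -0.80, *P2rx4* by 0.66 and 0.33, and *P2ry6* by -0.24 and -0.53. All 7 kept their sign within the second label in every comparison, and moved by at most 0.33 from the pooled value (*Entpd1*, slice 3 weeks against adult). With the label as a covariate *P2ry6* lost its call in slice 1 day.

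Neutrophil-marker barcodes (1% or more of UMIs in 9 neutrophil genes) numbered 71 and 116 in slice 1 day, 25 and 1 in slice 1 week and 0 elsewhere. Without them and 7 monocyte-marker barcodes, the slice 1 day changes from adult were -5.88 for *P2ry12*, -4.41 for *P2ry13*, -4.18 for *Entpd1*, -2.19 for *Adora3*, -1.31 for *P2rx7*, -0.61 for *P2ry6* and 0.17 for *P2rx4*, and the calls were those made with them. In slice 1 week they were -4.01 for *P2ry12*, -2.52 for *P2ry13*, -2.17 for *Entpd1*, -2.40 for *Adora3*, -0.62 for *P2rx7*, -0.24 for *P2ry6* and 0.70 for *P2rx4*, with the same calls. With the limit at 0.5%, chosen after seeing that 222 barcodes of slice 1 day replicate 2 and 94 of the 148 cells of slice 1 week replicate 1 lay between 0.5 and 2%, the *P2ry12* value was again -5.88. The *P2rx7* call of slice 1 week was lost at that limit (adjusted p = 0.092). The border macrophage markers that were high in vitro were led by *Pf4* and *Mrc1* (351 and 306 CPM), while *Lyve1* had 22 and 11 UMIs there, and their part in the in vitro results was not tested.

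The share of cells with a UMI was set on an equal footing by drawing 1000 UMIs from each cell, which left out 271 shallower adult cells and 2 of slice 1 week. Counting intervals cover counting error only. *P2ry12* was found in 99.0% and 99.7% of adult cells, in 49.0% and 42.2% of slice 3 weeks cells, in 21.6% and 23.7% of slice 1 week cells, in 11.4% and 7.30% of slice 1 day cells and in 6.62% and 4.33% in vitro. Barcodes with neutrophil markers, all from slice 1 day and slice 1 week libraries, gave 5.16% (11 of 213, exact 95% binomial interval 2.61 to 9.05%) at the same depth. The in vitro shares and that of slice 1 day replicate 2 lay inside this interval, and slice 1 day replicate 1 and all slice 1 week and slice 3 weeks libraries above it. In vitro, adult and slice 3 weeks libraries held no such barcodes, so their own background was not measured. Unthinned, the group means ran from 42% in slice 1 day and 42.8% in vitro to 99.9% in adult.

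*P2ry13* was found in 68.4% and 66.1% of adult cells, 28.3% and 21.0% of slice 3 weeks cells and 12.8% and 13.6% of slice 1 week cells. Slice 1 day (7.14% and 4.34%) and in vitro (2.73% and 1.75%) lay below the 7.98% of neutrophil-marker barcodes. In slice 1 day replicate 2, 222 barcodes lay between 0.5 and 2%, around the 1% limit, so barcodes above it may not all be neutrophils. Within slice 1 day the shares in those barcodes and in the other cells had separate counting intervals for *P2ry6* (12.8% and 26.5%), *P2rx4* (3.21% and 11.5%) and *P2rx7* (0% and 3.35%). The intervals overlapped for *P2ry12* (5.88% and 9.07%), *P2ry13* (8.02% and 4.91%), *Adora3* (6.42% and 3.72%) and *Entpd1* (3.74% and 1.71%). What part of these low shares is free RNA was not tested. *P2ry6* ranged only from 20.3% to 39.7% over all libraries, above the 11.3% of neutrophil-marker barcodes. *P2rx4* was in 23.0% and 21.3% of in vitro cells against 11.7% and 12.4% of adult cells, with 2.82% in neutrophil-marker barcodes. *Adora3* reached 19.6% and 16.9% in adult and 0.414% and 0.224% in vitro, and 2.03 to 5.94% in slices, with 5.63% in neutrophil-marker barcodes. *Entpd1* was in 21.1% and 17.7% of adult cells and in 4.05% and 0.888% of slice 1 day cells, with 3.29% in neutrophil-marker barcodes. *P2rx7* was in 7.61% and 7.47% of adult cells and 4.09% or fewer elsewhere, with 0.469% in neutrophil-marker barcodes and 0 of 59 cells in slice 1 week replicate 2, which by 3 counts of the total allows a share of cells with a UMI of up to 5.08%. Unthinned group means ran from 23.9 to 89.5% for *P2ry13*, 64.2 to 96.5% for *P2ry6*, 26.9 to 91.9% for *P2rx4*, 16.4 to 31.1% for *P2rx7*, 3.35 to 38.6% for *Adora3* and 8.71 to 49.8% for *Entpd1*.

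**Figure D3:**
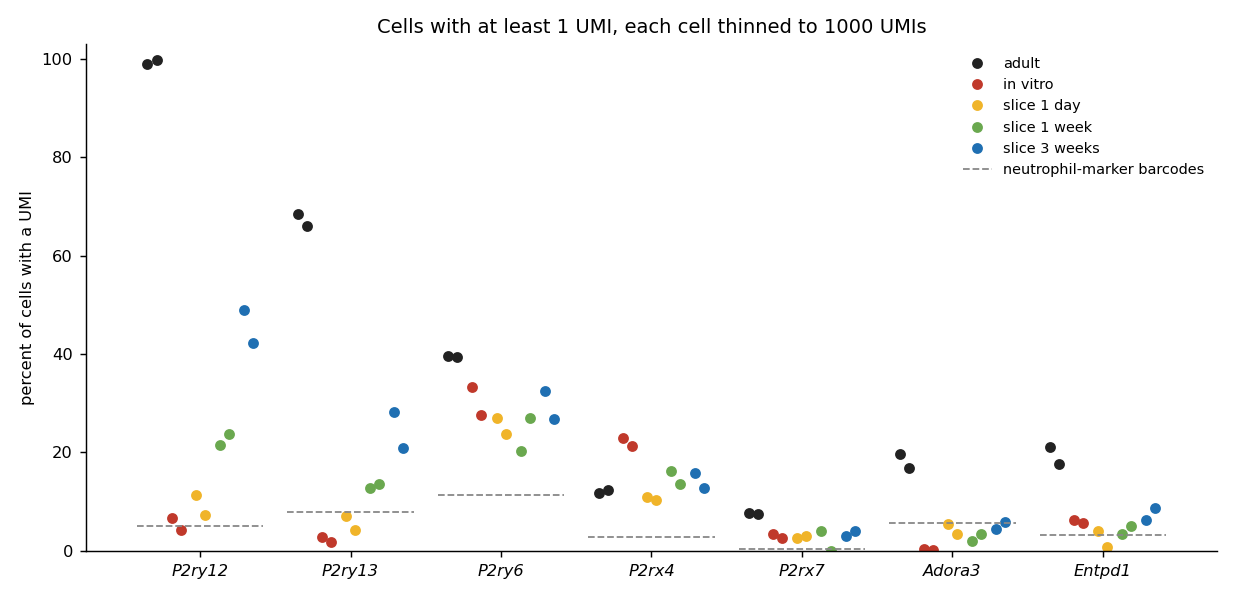
Percent of cells with at least 1 UMI of each gene after drawing 1000 UMIs per cell. Points are libraries and dashed lines the share in 213 neutrophil-marker barcodes, all from slice 1 day and slice 1 week libraries. *P2ry12* drops from 99.0% or more in adult to 6.62% or less in vitro, next to its dashed line at 5.16%, and *P2rx4* is highest in vitro.

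The makeup of the 7 genes' UMIs changed with culture. This share compares molecules captured at their 3′ end and is not scaled by gene length. *P2ry12* made up 75.5% and 79.3% of the 7 genes' UMIs in adult and 6.86% and 5.52% in vitro, and 48.7% and 47.7% in slice 3 weeks. *P2ry6* took 5.49% and 4.91% in adult, 46.5% and 47.8% in vitro, 41.2% and 49.2% in slice 1 day, and 19.9% and 18.6% in slice 3 weeks. *P2rx4* took 1.3% and 1.24% in adult and 32.3% and 32.4% in vitro. In vitro and slice 1 day libraries thus held more UMIs of the UDP receptor gene than of *P2ry12* (1.94 to 8.66 per *P2ry12* UMI). The slice 1 week libraries lay on either side of equal numbers (0.819 and 1.04). Slice 3 weeks (0.41 and 0.389) and adult libraries (0.0727 and 0.0620) held fewer. Summed over the 7 genes the level was 8595 and 9333 CPM in adult, 876 and 772 CPM in vitro, and 734 and 585 CPM in slice 1 day.

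**Figure D4:**
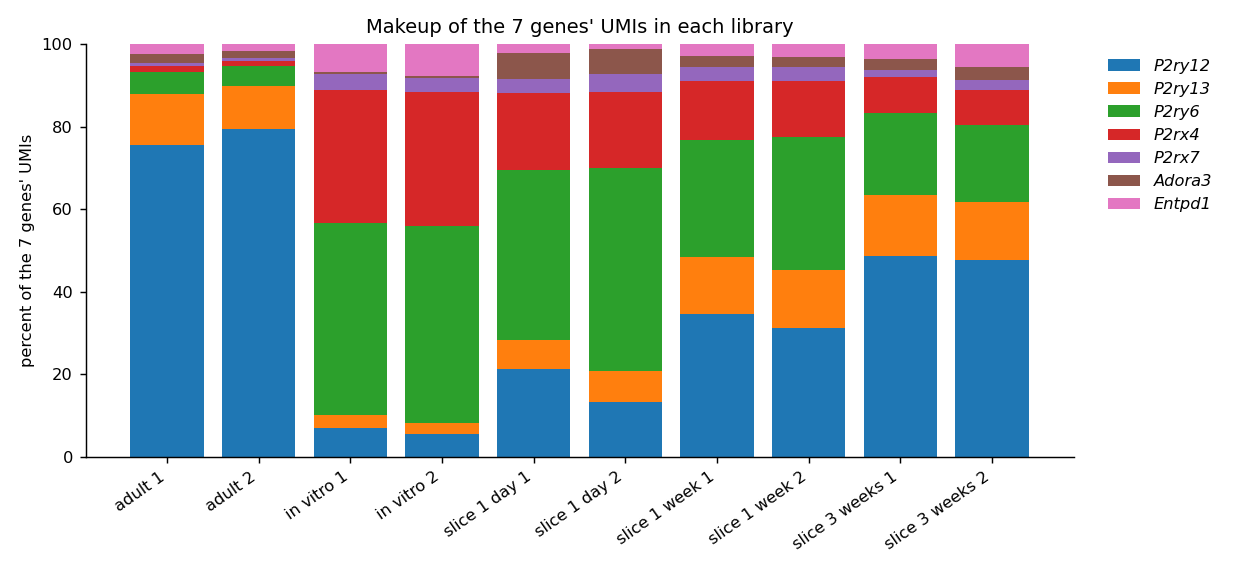
Percent of the summed UMIs of the 7 genes taken by each gene in each library, as stacked bars from 0 to 100%. *P2ry12* fills 75.5% or more of the adult bars, and *P2ry6* with *P2rx4* most of the in vitro bars.

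Over the 10 libraries, the genes with the pattern most like a member were found by Pearson's r of log2 CPM among 3917 well-expressed genes, as a description in which the points share 5 groups. For *P2ry12* they were *Tmem119* (r = 0.997), *Selplg* (0.994) and *Gpr34* (0.993), and *P2ry13* came next at 0.991. For *P2ry13* they were *P2ry12* (0.991), *Ldhb* (0.991) and *Cx3cr1* (0.990). *Adora3* was most like *Ecscr* (0.992), *Atp6v0a2* (0.986) and *Siglech* (0.985), and *Entpd1* most like *Laptm4a* (0.980), *Rgs10* (0.979) and *Pura* (0.977). *P2ry6* was nearest *Tifa* (0.980), *Pias1* (0.961) and *Fcgr3* (0.955). *P2rx4* was nearest *Myo1f* (0.969), *Slc6a6* (0.960) and *Fcer1g* (0.956), and *P2rx7* nearest *Prex1* (0.983), *Hps3* (0.981) and *Tagap* (0.977). *P2rx4* ran against *Adora3* (r = -0.885).

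The rest of the pathway was read from 7 lists holding 47 genes, of which 41 had a UMI and 29 could be tested. In vitro against adult 9 were called lower and 10 higher, in slice 1 day 7 and 10, in slice 1 week 5 and 4, and in slice 3 weeks 6 and 4. Set beside these are the shares of all genes given above, 28.5% lower and 22.4% higher in vitro, 25.3% and 24.9% in slice 1 day, 13.6% and 15% in slice 1 week, and 17.5% and 17.9% in slice 3 weeks. Of the 4 other P2Y receptor genes only *P2ry2* and *P2ry14* could be tested. Both were called higher in vitro and in slice 1 day, neither in slice 1 week, and *P2ry2* alone in slice 3 weeks. *P2ry2*, an ATP and UTP receptor gene beside *P2ry6*, was at 0.439 and 0.258 CPM in adult, 10.2 and 8.96 CPM in slice 1 day, 2.67 and 3.12 CPM in vitro and 2.59 and 7.59 CPM in slice 3 weeks. It was called higher in slice 1 day (4.65 ± 0.63, edgeR adjusted p = 0.00016, and 4.56 without neutrophil- and monocyte-marker barcodes), in vitro and in slice 3 weeks (3.83 ± 0.63, with 2.56 within the first study label and 4.88 within the second). *P2ry14*, a UDP-sugar receptor gene, was highest in vitro (4.37 and 4.83 CPM against 0.220 and 0.129 CPM in adult, log2 4.56 ± 0.59). *P2rx1* was the only other P2X gene tested, and fell in vitro (-4.14 ± 0.51, adjusted p = 7.2e-05) and in slice 1 day (-2.38 ± 0.54).

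*Adora2b*, the low-affinity adenosine receptor gene, had 1 UMI in adult, 52 in slice 1 day and 84 in vitro. Scaled to depth, slice 1 day was 82.1 times adult (95% counting interval 14.1 to 3305) and in vitro 26.9 times (4.69 to 1074). Without neutrophil- and monocyte-marker barcodes slice 1 day kept 49 of the 52. It fell to 2 UMIs in slice 3 weeks (0.0178 of slice 1 day, counting interval 0.0021 to 0.0677).

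Of the other ectonucleotidase genes, 4 were tested and all 4 were called higher in slice 1 day against adult (24.9% of all genes). Of these, 3 (*Nt5e*, *Entpd3* and *Acpp*) had 0 UMIs in adult and passed the count filter through cultured libraries alone. Against adult they could only be called higher, and their calls came with the neutrophil- and monocyte-marker barcodes. *Nt5e*, encoding the AMP-cleaving enzyme CD73, had 0 UMIs in adult and 33 in slice 1 day, at least 17.4-fold higher against a floor of 3 counts over the group. It kept 11 UMIs in slice 1 day without the marker barcodes. *Entpd3*, a relative of *Entpd1*, went from 0 UMIs to 29 (at least 15.3-fold), of which 2 remained without those barcodes, and was at 0 in slice 3 weeks (at least 20.9-fold lower than 1 day). *Acpp*, a phosphatase gene, also went from 0 to 29 UMIs, 3 and 26 in the replicates, of which 10 remained. Without the marker barcodes these 3 genes had too few counts to be tested. *Enpp1*, the most abundant of the list, rose from 3.66 and 4.38 CPM in adult to 15.2 and 18.0 CPM in slice 1 day (2.07 ± 0.22, edgeR adjusted p = 3.3e-05, and 2.14 without the marker barcodes), and stood at 13.8 and 14.8 CPM in slice 3 weeks (1.85 ± 0.21). With the genes at 0 set to their bounds the list's median log2 change was 3.93 in slice 1 day, with those barcodes included. That median is itself the bound of *Entpd3* and *Acpp*, so it cannot be set against the median over all genes. Of the intracellular relatives, *Entpd6* was called lower in vitro (-1.49 ± 0.21, but 0.66 per cell unscaled) and *Entpd5* higher in vitro and in slice 1 day and 3 weeks (0.84 to 1.26).

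Among genes of nucleotide release and adenosine handling, 8 were tested. In vitro 4 were called lower and 2 higher, in slice 1 day 4 and 1, in slice 1 week 4 and 0, and in slice 3 weeks 5 and 1, against the shares of all genes just given, with medians of -0.67, -0.55, -1.04 and -0.85. *Pnp*, which breaks down inosine, was at 237 and 258 CPM in adult and 104 and 118 CPM in slice 1 day (-1.15 ± 0.20, edgeR adjusted p = 0.00084). *Slc17a9*, the vesicular nucleotide transporter gene, was lower in all 4 cultured groups (-0.84 to -2.31). The -2.31 is that of slice 1 week, which rests on 2 UMIs in each library and was not called with the limit for marker barcodes at 0.5% (-2.13, adjusted p = 0.06). Per cell, unscaled, *Pnp* was higher in vitro (1.58) and in slice 1 day (0.42), and *Slc17a9* in vitro (0.33), in slice 1 day (0.65) and in slice 3 weeks (0.21). *Adk*, the kinase that returns adenosine to AMP, was called higher in vitro (1.81 ± 0.23), in slice 1 day (1.46 ± 0.24) and in slice 3 weeks (0.82 ± 0.23, with 1.23 and 0.38 within the 2 study labels). *Ada*, which deaminates adenosine, was higher in vitro than in adult (1.27 ± 0.44, adjusted p = 0.03, but 0.96 and not called by library size alone) and than in slice 3 weeks by 3.01 ± 0.51 (10.8 and 10.2 CPM against 2.72 and 0.512 CPM), and lower in slice 3 weeks than in adult by -1.75 ± 0.54 (adjusted p = 0.027). The latter was -0.65 within the first study label and -3.14 within the second, and -0.52 per cell, unscaled, where it was not called.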

How the data were processed

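Single-cell libraries of sorted microglia (10x Genomics 3′ v2, 2 per group) were analysed from the UMI count tables that the authors deposited, 1 table of genes by cell barcodes per library. Per the submitters' processing notes these counts were made with Cell Ranger 1.3.0 against mm10, which is the build GRCm38; whether libraries were brought to an equal depth with its aggregation step before deposit is not given in the sources used here. The study's own limits were applied to cells, namely at least 400 genes, at most 30000 UMIs and at most 5% of UMIs from mitochondrial genes, which removed 578 of 19637 barcodes, and no doublet caller was run.

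UMIs were summed per library, since cells are not replicates. Genes were kept by filterByExpr (minimum count 10), scaled by TMM (factors 0.898 to 1.14) and fitted in 1 model of 5 groups with edgeR 4.0.16 (quasi-likelihood, 12157 genes, biological coefficient of variation 18.3%). A standard error is the log2 change divided by the square root of F. The step was tested on simulated data. With 2 libraries per group an exact permutation test of a single value cannot go below p = 0.333. The study calls the libraries of a group independent samples. Separate animals are not stated, so p-values measure only the spread between these libraries, which may be technical.

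The members and lists were chosen with earlier results of these data known. All 7 members were described in every library; of the lists, the genes with the largest called change (3 per comparison) and the most abundant were named, and others were added after their values were seen. Promoters came from the RefSeq table (GRCm38.p6). Alternatives were DESeq2 1.42.0, other scalings and filters, other sets of cells, a study label covariate, a replicate block and leaving out each library.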

Additional observations from a re-analysis of the deposited data

Results flagged for a closer look

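The difference from adult was not the same at each slice time point, by the direct test between time points in edgeR. *P2ry12* stood higher at 3 weeks than at 1 day by 2.96 on the log2 scale and higher at 1 week than at 1 day by 1.84. *P2ry13* was higher by 2.48 and 1.87, and *Entpd1* by 2.95 and 1.83. With cells thinned to 1000 UMIs the 1 week against 1 day calls were lost, at 1.40 for *P2ry12* (edgeR adjusted p = 0.052), 1.15 for *P2ry13* (adjusted p = 0.16) and 0.87 for *Entpd1* (adjusted p = 0.66). *P2rx7* was higher at 3 weeks than at 1 day by 0.56, which passed the adjusted p but not the 1.5-fold limit, and was called with the study label as a covariate (0.60, adjusted p = 0.027). The adult libraries take no part in these differences. No group had the 4 libraries that a test of single outlying samples needs.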

How the results depend on the processing

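Counted as UMIs per cell with no scaling for depth, the median gene shifted by 1.08 to 2.15 on the log2 scale in the 4 cultured groups against adult, and the members called lower and higher became 3 and 3 in vitro, 3 and 2 in slice 1 day, 2 higher in slice 1 week (4 lower), and 2 and 1 in slice 3 weeks; 3 were higher in vitro than in slice 3 weeks. Reversed values on that count, against adult, were *P2ry6* 1.91 in vitro, 0.88 in slice 1 day, 0.90 in slice 1 week and 0.74 in slice 3 weeks, *P2rx7* 1.06, 0.15, 0.51 and 0.24, and *Entpd1* 0.52 in vitro. Also reversed were *P2rx7* 0.82 and *Entpd1* 0.60 in vitro against slice 3 weeks, *P2ry6* -0.14 and *P2rx4* -0.02 in slice 3 weeks against 1 day, and *P2rx7* 0.54 in vitro against slice 1 week. *P2ry12* and *P2ry13* fell against adult in all 4 groups on that count too. Over all genes the calls against adult became 571 lower and 9767 higher in vitro, from 3461 and 2719. They were 424 lower and 8251 higher in slice 1 day, 164 and 5348 in slice 1 week, and 335 and 6801 in slice 3 weeks. In vitro against slice 3 weeks they were 674 and 6402.

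Under the other alternatives 1505 of 1582 member values kept their direction and call, 38 lost a call, 24 gained one and 15 reversed, none of them a called value. Scaled by library size alone, reversed were *P2rx4* -0.02 (slice 1 day against adult) and *P2ry6* -0.08 (in vitro against slice 1 week). Reversed too were *P2ry6* -0.02 and -0.03 in vitro against slice 1 week without marker barcodes at limits of 1% and 0.5%. With cells thinned, *P2rx7* was -0.16 in slice 1 week against 1 day, 0.50 in slice 3 weeks against 1 week and 0.29 in vitro against slice 1 week, and *P2ry6* 0.33 in slice 3 weeks against 1 week (0.03 with no filter). On leaving out each library, *P2rx4* ran from -0.06 to 0.32 in slice 1 day against adult and from -0.22 to 0.06 in slice 3 weeks against 1 week, where *P2ry6* ran from -0.22 to 0.13 and *P2rx7* from -0.26 to 0.05, and *P2ry6* from -0.01 to 0.31 in vitro against slice 1 week. The 1 member higher in slice 1 week became 0 by library size alone, with no filter and with cells thinned. Leaving out each library in turn gave 0 to 1 there, 0 to 1 higher in slice 3 weeks against adult, and 5 to 6, 4 to 5 and 4 to 5 lower in slice 1 day, 1 week and 3 weeks. The causes were not tested. Without both slice 1 week libraries, chosen after seeing the data, all 42 values kept their call.

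The replicate numbers did not pair the libraries (correlations of deviations -0.135 to 0.123). With a replicate block the members called lower in the 4 comparisons with adult were 5, 6, 5 and 5 as without it, and *P2ry12* gained a call in slice 3 weeks against 1 week (1.11, edgeR adjusted p = 0.041). All 35 shares of cells moved without thinning and 34 with 3000 UMIs. Counts over all genes under the scaled alternatives ranged from 587 to 2507 lower and 742 to 2164 higher in slice 1 week against adult, from 784 to 2009 lower and 656 to 2260 higher in slice 3 weeks against 1 day, and fell to 2206, 1940 and 1369 lower in vitro, in slice 1 day and in slice 3 weeks against adult and to 1222 lower in vitro against slice 3 weeks. Slice 1 week rests on 61 and 148 cells.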

Other observations

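Of the genes that act downstream of these receptors 10 were tested. In vitro against adult 3 were called lower and 2 higher (28.5% and 22.4% of all genes), and in slice 3 weeks 1 lower and 0 higher (17.5% and 17.9% of all genes), with list medians of -0.16 and -0.14. *Kcnk13*, the potassium channel gene THIK-1 known to be opened through P2RY12, was at 123 and 141 CPM in adult, 57.1 and 48.0 CPM in vitro, 62.1 and 66.6 CPM in slice 1 day and 93.3 and 84.3 CPM in slice 3 weeks. It was called lower in vitro (-1.33 ± 0.15, edgeR adjusted p = 3.3e-05), in slice 1 day (-1.03 ± 0.15) and in slice 1 week (-0.94 ± 0.17), but lay above adult per cell, unscaled (0.87, 0.54 and 0.27). *Gnai2*, the G protein subunit gene through which P2RY12 signals and the most abundant of the list, was higher in vitro (939 and 904 CPM against 383 and 507 CPM in adult, log2 1.05 ± 0.19). *Nlrp3*, the inflammasome sensor gene downstream of P2RX7, was lower in vitro (-1.38 ± 0.30, adjusted p = 0.0029), and *Casp1* was lower in slice 3 weeks (-0.70 ± 0.18, adjusted p = 0.01, with -0.38 and -1.05 within the 2 study labels), while per cell, unscaled, they were at 0.79 and 0.44.

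Both abundant equilibrative nucleoside transporter genes were lower in CPM in vitro and in slice 1 day. Per cell, unscaled, *Slc29a1* was higher in vitro (0.81) and at -0.05 in slice 1 day, and *Slc29a3* was at -0.07 in vitro and lower in slice 1 day (-1.35, edgeR adjusted p = 0.00042). *Slc29a3* was at 155 and 172 CPM in adult, 36.3 and 31.9 CPM in vitro and 23.6 and 20.2 CPM in slice 1 day. *Slc29a1* was at 155 and 179 CPM in adult, 66.3 and 60.8 CPM in vitro and 122 and 102 CPM in slice 3 weeks, where it was not called (-0.57 ± 0.17). Next to *Adora3*, *I830077J02Rik* was lower in all 4 cultured groups, from 77.3 and 86.3 CPM in adult to 9.57 and 8.64 CPM in vitro. These genes were chosen for mention after their values were seen.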
